A study of Mus musculus with 18 samples.

Results

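The mitochondrial ribosomal protein genes are the nuclear genes whose symbols are Mrpl or Mrps followed by a number and, in a few, a letter a, b or c. The rule took 77 of the 24062 symbols of the deposited count table, 48 named for the large subunit (Mrpl) and 29 for the small subunit (Mrps), without use of any measured value. All 77 had enough reads to be tested, and the smallest count of any of them in any library was 236.

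The mitochondrial ribosome translates the few proteins encoded by mitochondrial DNA, which are core subunits of the respiratory chain. All of its proteins are encoded in the nucleus, made in the cytosol and imported, and its ribosomal RNAs come from mitochondrial DNA. Some members have bacterial counterparts, such as those lining the decoding centre or the peptide exit tunnel, and others are found in mitochondrial ribosomes alone.

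RNA was sequenced from mouse progenitor lines that were made from lineage-negative bone marrow with a retrovirus carrying the leukemia fusion gene MLL-AF9 and that grew in interleukin 3, interleukin 6 and stem cell factor. Every line carries Rosa-CreERT, a Cre recombinase active after 4-hydroxytamoxifen (4OHT), and the lines differ in Ddx41, a DEAD-box RNA helicase gene. The lines were WT (+/+), Het (a floxed allele beside a normal one, +/- after Cre) and FF (both alleles floxed, -/- after Cre), each given ethanol (WT_EtOH, Het_EtOH, FF_EtOH) or 1 µM 4OHT (WT_4OHT, Het_4OHT, FF_4OHT) for 48 h, with 3 libraries lettered A to C in each of the 6 groups. Per the series' design text, cells lacking both alleles die by a later time point, and FF cells were therefore measured before that. WT cells given 4OHT carry the same active Cre and drug as FF cells. The labels state neither the number of lines per genotype nor whether the letters are separate cultures, so the p-values cover the spread among libraries, possibly a technical one, and an effect of genotype cannot be told apart from one of the line. In these bulk samples a smaller number of cells of a type and less RNA per cell cannot be told apart.

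Promoter sequence from the RefSeq promoter table (GRCm38.p6) is shown for 5 members, to give the letters around the starts of genes that moved with genotype. Mrpl24, Mrps24 and Mrps12 fell in FF cells given 4OHT once 2 libraries were left out, and Mrps33 and Mrps18b were the lowest in Het against WT cells in ethanol. Mrpl4 and Mrpl38, which also fell in FF, are named only. Each run goes from 250 bases before the start to 30 after it, 5′ to 3′ on the gene's strand. Mrpl24 lies at chr3:87919294-87919573 on the plus strand. Mrps24 lies at chr11:5707672-5707951, Mrps12 at chr7:28741792-28742071, Mrps33 at chr6:39810907-39811186 and Mrps18b at chr17:35916411-35916690, all on the minus strand. Capitals mark matches to 3 motifs that were searched on both strands: CCGGAAG, the core bound by ETS factors, GCATGCGC, the core bound by NRF1, and AAGATGG, the core bound by YY1.
Mrpl24: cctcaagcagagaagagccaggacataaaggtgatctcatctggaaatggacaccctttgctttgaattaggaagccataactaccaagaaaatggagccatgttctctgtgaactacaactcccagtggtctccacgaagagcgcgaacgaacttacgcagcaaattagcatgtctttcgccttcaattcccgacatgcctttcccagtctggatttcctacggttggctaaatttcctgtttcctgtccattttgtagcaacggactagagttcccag
Mrps24: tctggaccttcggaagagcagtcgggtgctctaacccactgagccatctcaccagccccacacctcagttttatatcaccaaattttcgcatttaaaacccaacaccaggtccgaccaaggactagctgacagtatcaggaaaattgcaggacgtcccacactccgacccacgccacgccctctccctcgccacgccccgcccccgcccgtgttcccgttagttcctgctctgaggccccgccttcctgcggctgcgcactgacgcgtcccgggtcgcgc
Mrps12: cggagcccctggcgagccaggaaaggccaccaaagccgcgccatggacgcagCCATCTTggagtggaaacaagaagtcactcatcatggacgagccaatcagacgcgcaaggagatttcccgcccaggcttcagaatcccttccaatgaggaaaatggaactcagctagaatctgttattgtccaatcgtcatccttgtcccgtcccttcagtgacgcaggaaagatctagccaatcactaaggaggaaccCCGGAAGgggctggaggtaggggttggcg
Mrps33: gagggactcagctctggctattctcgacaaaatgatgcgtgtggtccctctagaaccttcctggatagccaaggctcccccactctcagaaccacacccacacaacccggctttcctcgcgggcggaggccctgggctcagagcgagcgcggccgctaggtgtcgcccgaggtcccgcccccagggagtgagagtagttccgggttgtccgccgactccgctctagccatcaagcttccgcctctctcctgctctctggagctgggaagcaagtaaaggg
Mrps18b: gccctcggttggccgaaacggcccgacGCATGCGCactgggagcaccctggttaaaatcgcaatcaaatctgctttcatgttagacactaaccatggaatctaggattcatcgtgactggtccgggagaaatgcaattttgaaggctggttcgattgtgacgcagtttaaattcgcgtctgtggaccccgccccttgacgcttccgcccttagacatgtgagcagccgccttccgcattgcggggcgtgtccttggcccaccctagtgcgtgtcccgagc
The Mrps12 window holds an ETS core and, read on the other strand, a YY1 core, and the Mrps18b window holds an NRF1 core. None of the 3 cores is in the windows of Mrpl24, Mrps24 and Mrps33, which says only that these letters are absent there.

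Windows were found for 68 of the 77 members. At least 1 core was present in 32 of them (47.1%), against 18.8% of all 16781 promoters of the same length in the table. The ETS core was in 22 (32.4%, against 11.3%), the YY1 core in 10 (14.7%, against 5.6%) and the NRF1 core in 8 (11.8%, against 3.5%). A gene arrangement was also more frequent among the members, although most of them lack it. The 16781 promoters, and the 19618 protein-coding genes used next, include genes with too few reads to be tested here. All 77 members were tested, so these backgrounds differ from the members in expression. In the GENCODE M21 annotation of GRCm38, the assembly behind mm10, 33 of the 77 (42.9%) start within 1 kb of a protein-coding gene that runs in the opposite direction, against 11.1% of the 19618 protein-coding genes in the table. Mrps12 starts 172 bases from Sars2, the mitochondrial seryl-tRNA synthetase gene, and Mrps18b starts 45 bases from Ppp1r10, a regulatory subunit gene of protein phosphatase 1. Exonic bases are shared with another gene by 32 members (41.6%, against 29.6%), and the strand setting of the deposited counts is not given in the sources used here. The counts of those members may include reads of the neighbour or miss reads of their own.

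Library totals ran from 24730213 to 49277884 counts, no pair among 153 had identical counts, and each library was counted once because the smallest chi-square per gene between libraries was 9.12. Ddx41 fell in FF cells given 4OHT (log2 difference -2.45 ± 0.17 SE, edgeR adjusted p = 8.09e-07) and was at 0.03 in WT (adjusted p = 1). In Het its log2 difference was -0.61 (adjusted p = 0.86), with all 3 Het_4OHT libraries below all 3 Het_EtOH libraries. Myeloid progenitor markers, 9 genes that include Kit and Mpo, summed to between 4594 and 13123 CPM (counts over the library total, scaled with TMM factors) in every library, and 6 erythroid genes that include the globins summed to at most 1.86 CPM, with 4 or 5 of the 6 at 0 in every group. The progenitor sum does not stand for each of its genes. Elane alone gave 2091 to 5372 CPM, and Mpo was at 64.7 to 136 CPM in the Het libraries against 2441 to 3790 CPM in WT_EtOH. Libraries stood apart in 2 ways. The library labelled FF_EtOH C correlated better with the WT_EtOH libraries (mean Pearson r of log2 CPM 0.994) than with the other FF_EtOH libraries (0.979), and the library labelled WT_4OHT C better with FF_EtOH (0.984) than with the other WT_4OHT libraries (0.974). Het_4OHT A had the lowest mean correlation with its own group (0.966). Results are therefore given for all libraries and again without FF_EtOH C and Het_4OHT A.

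All 77 genes were expressed, over a wide range of levels. Per kilobase of principal transcript, Mrpl33 was highest, at a mean of 210.0 CPM per kb over the 18 libraries. Mrpl18 (111), Mrpl42 (108), Mrpl12 (104) and Mrps21 (101) followed with nearly equal levels, and the ranges of these 4 over the libraries overlapped. Mrpl12, which forms the stalk of the large subunit and is reported in human cells to bind the mitochondrial RNA polymerase, ran from 82.5 to 166 CPM per kb. The lowest were Mrps25 (7.01), Mrpl1 (7.34), Mrpl47 (7.42), Mrps35 (8.60) and Mrpl35 (9.79 CPM per kb), whose ranges over libraries also overlapped: Mrps25 ran from 5.43 to 10.5 and Mrpl35 from 7.49 to 12.6 CPM per kb. Mrps25 shares 4590 exonic bases with Nr2c2, and Mrpl47 shares 1068 with Actl6a and Ndufb5. Mrpl33 was divided by a principal transcript of 478 bases, while its exons together cover 7326, and it shares 261 with Gm43809. The places of these genes in the order are therefore uncertain. Large subunit genes lay at the top and at the bottom of the order.

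Summed over the 77 genes, the level was even across WT and FF and uneven in Het. WT_EtOH libraries A, B and C summed to 4078, 4043 and 4122 CPM and WT_4OHT libraries to 3904, 4178 and 4327 CPM. FF_EtOH libraries summed to 4259, 4143 and 3926 CPM and FF_4OHT libraries to 3855, 3957 and 3913 CPM. These 12 libraries lay close together, with overlapping groups in WT and with FF_EtOH C, at the lower end of its group, still inside the range of FF_4OHT. Het_EtOH libraries summed to 3956, 3121 and 3800 CPM and Het_4OHT libraries to 5770, 3104 and 3848 CPM. Library A was high in Het_4OHT and library B was low in both Het groups.

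**Figure D1:**
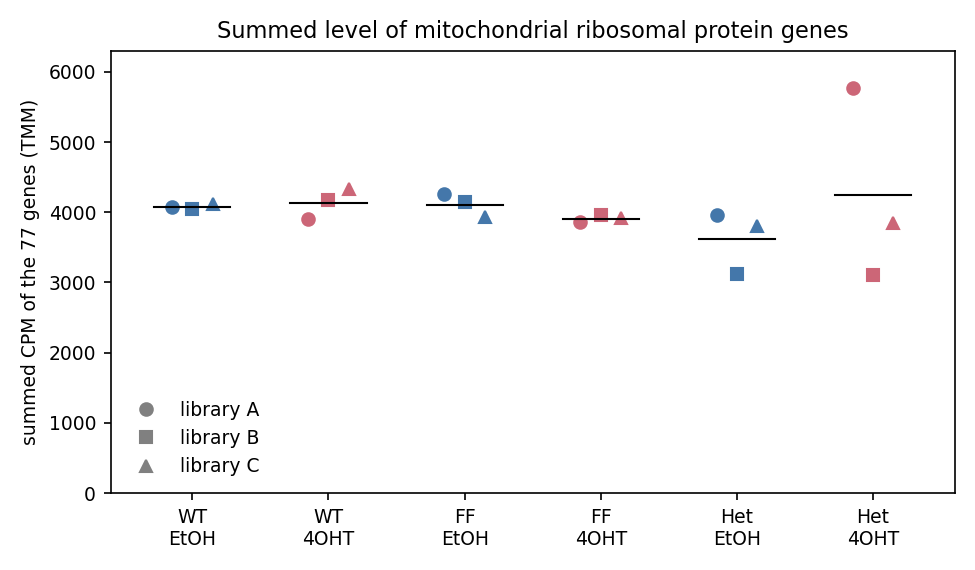
Summed level of the 77 mitochondrial ribosomal protein genes in each library (CPM after TMM scaling, linear axis from 0), with library letters as symbols and the group mean as a line. Het_4OHT A stands at 5770 CPM and the B libraries of both Het groups at 3104 and 3121 CPM, while the 12 WT and FF libraries lie between 3855 and 4327 CPM.

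The same libraries decided most single members. Het_4OHT A was the highest of all 18 libraries for 62 of the 77 genes. Het_4OHT B was the lowest for 27 and Het_EtOH B for 25. Mrpl33 was at 131, 85.4 and 122 CPM in Het_EtOH A, B and C and at 245, 77.4 and 111 CPM in Het_4OHT A, B and C. Mrpl12 was at 128, 109 and 129 CPM in Het_EtOH and at 218, 113 and 143 CPM in Het_4OHT. In both genes, Het_4OHT A was above every other library of the study. The coefficient of variation within a group, as a median over the 77 genes, was 34.4% in Het_4OHT and 14.0% in Het_EtOH, against 7.05% in WT_EtOH, 7.14% in WT_4OHT, 11.8% in FF_EtOH and 4.94% in FF_4OHT.

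Transcript length moved with the height of Het_4OHT A across other protein-coding genes. In that library the median log2 deviation from the mean of all 18 libraries was 0.60 for other genes under 1 kb, 0.44 from 1 to 1.5 kb, 0.28 from 1.5 to 2 kb, 0.10 from 2 to 3 kb, -0.16 from 3 to 5 kb and -0.58 above 5 kb. The mitochondrial ribosomal protein genes deviated by 0.63, 0.56, 0.47, 0.50, 0.44 and 0.64 in the same classes, which hold 25, 22, 6, 7, 14 and 3 of them. The low B libraries showed the opposite order across lengths in other genes. Their median deviation was -0.41 under 1 kb and 0.05 above 5 kb in Het_EtOH B, and -0.49 and 0.08 in Het_4OHT B. Over the 77 genes it was -0.34 and -0.37 in these 2 libraries, and over the cytosolic ribosomal protein genes -0.69 and -0.85. In Het_4OHT A, short members about as much as other short genes, and the members above 3 kb, in the last 2 classes, deviated upward where other genes of their length deviated downward. The median deviation in Het_4OHT A was 0.56 over all 77 genes and 0.47 over the cytosolic ribosomal protein genes. As a description across genes, Spearman's rho between length and deviation was -0.32 over the 77 and -0.64 over 8235 other genes, all from Het_4OHT A. The part of length or of RNA quality in the level of the mitochondrial ribosomal protein genes in these 3 libraries was not tested.

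**Figure D2:**
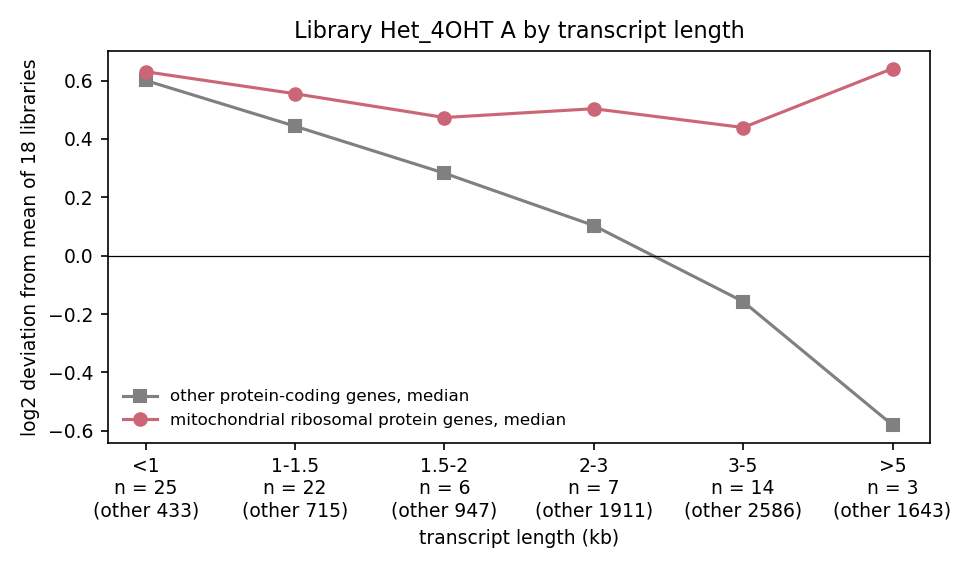
Median log2 deviation of library Het_4OHT A from the mean of all 18 libraries, by length of the principal transcript (kb), for the 77 mitochondrial ribosomal protein genes (circles) and other protein-coding genes (squares), with the number of genes under each class. Other genes go from 0.60 in the shortest class to -0.58 in the longest, and the 77 genes stay between 0.44 and 0.64.

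The response of FF cells to 4OHT, which deletes both Ddx41 alleles, was modest over this gene group. With all libraries, edgeR called none of the 77 genes at an adjusted p under 0.05, while it called 13.4% of the 12859 genes tested. At an unadjusted p under 0.05 there were 7, of which 1 was higher and 6 lower, against 28.1% of all genes. DESeq2 called Mrpl9 higher and Mrpl24 lower, 2 of 77 against 17.7% of all genes. The median log2 difference over the 77 was -0.10, against -0.02 over all genes tested, with 26 genes above 0 and 51 below. Large and small subunit genes had similar medians, -0.09 and -0.11. Without FF_EtOH C and Het_4OHT A, 5 members fell and none rose, which is 5 of 77 against 10.5% of all genes called lower in that fit (17.6% called in either direction). The members' share was thus no larger than the background in either fit, nor with DESeq2 or without adjustment. The median was then -0.12, again with 26 genes above 0, and it was -0.03 without FF_EtOH A alone. The median standard error over the members was 0.19 with all libraries and 0.15 without the 2. Without Het_4OHT A alone, which is in neither FF group, 6 members fell and 1 rose, 7 of 77 against 20.5% of all genes. Without Het_4OHT B alone 2 fell and 1 rose, 3 of 77 against 13.5% of all genes.

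**Figure D3:**
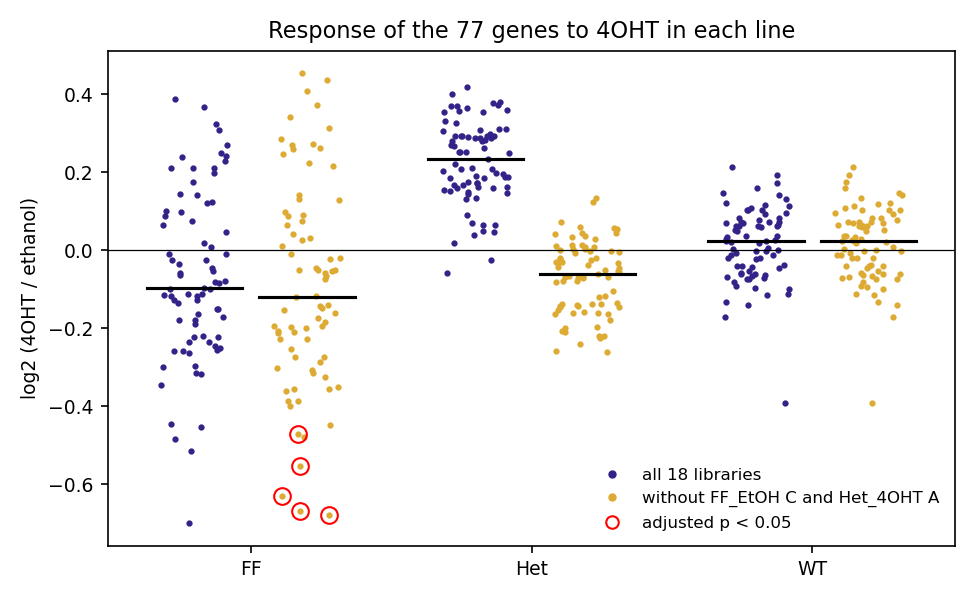
Log2 difference between 4OHT and ethanol for each of the 77 genes in FF, Het and WT, with all 18 libraries (dark points) and without FF_EtOH C and Het_4OHT A (light points); lines are medians and rings mark edgeR adjusted p under 0.05. In FF the medians are -0.10 and -0.12 with 5 ringed genes in the second fit, in Het the median goes from 0.23 to -0.06, and in WT it is 0.02 in both.

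The fit that called these 5 held only libraries A and B in FF_EtOH. With single libraries left out in turn, Mrpl4, Mrpl24, Mrpl38 and Mrps24 were each called in 2 of 18 fits. Mrpl4 was also at an edgeR adjusted p of 0.05 without FF_EtOH C. Mrps12 was called in 0 of 18. The smallest falls in those fits were -0.33 for Mrpl38 and -0.26 for Mrps12. Of the 5 that fell, Mrpl4 and Mrpl24 are large subunit proteins with bacterial counterparts that lie at the peptide exit tunnel. Mrpl4 was at 60.6, 51.8 and 45.2 CPM in FF_EtOH A, B and C and at 36.1, 38.7 and 40.2 CPM in FF_4OHT. Every 4OHT library lay below every ethanol library. In WT, Mrpl4 was at 49.8, 44.7 and 55.2 CPM in ethanol and at 52.3, 53.4 and 63.1 CPM in 4OHT, with overlapping groups. Its log2 difference in FF was -0.55 ± 0.12 (SE, edgeR adjusted p = 0.00832) without the 2 libraries and -0.45 ± 0.16 (adjusted p = 0.0658) with all. The gene lies on chromosome 9 (21002738 to 21008839, plus strand, GRCm38) and shares no exonic bases with another gene.

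Mrpl24, whose promoter is printed above, was at 90.0, 77.3 and 79.4 CPM in FF_EtOH and at 57.1, 59.1 and 65.1 CPM in FF_4OHT. The groups were separate, and FF_EtOH C was close to FF_EtOH B. In WT it was at 79.0, 81.9 and 86.7 CPM in ethanol and at 81.4, 90.9 and 93.5 CPM in 4OHT. Its log2 difference in FF was -0.47 ± 0.10 (SE, edgeR adjusted p = 0.00636) without the 2 libraries and -0.45 ± 0.15 (adjusted p = 0.0636) with all. The gene shares 594 exonic bases with Rrnad1 on the opposite strand, which makes its count uncertain. Rrnad1 had a log2 difference of 0.45 in FF (adjusted p = 0.1), of the opposite sign.

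Mrpl38, a large subunit protein found in mitochondrial ribosomes and not in bacterial ones, was at 47.6, 37.1 and 29.8 CPM in FF_EtOH A, B and C and at 26.8, 25.2 and 28.1 CPM in FF_4OHT. The groups did not overlap, although FF_EtOH C lay near the 4OHT libraries and within the WT_EtOH range of 28.3 to 36.9 CPM. Its log2 difference in FF was -0.67 ± 0.16 (SE, edgeR adjusted p = 0.0111) without FF_EtOH C and Het_4OHT A and -0.52 ± 0.19 (adjusted p = 0.077) with all libraries. It lies on chromosome 11 (116131817 to 116138868, minus strand, GRCm38) and shares no exonic bases with another gene.

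The small subunit members were Mrps24 and Mrps12. Mrps24, the counterpart of a bacterial protein at the mRNA entry channel, was at 39.7, 33.4 and 38.1 CPM in FF_EtOH and at 20.7, 22.6 and 25.2 CPM in FF_4OHT, again with separate groups. Its log2 difference was -0.68 ± 0.20 (SE, edgeR adjusted p = 0.0305) without the 2 libraries and -0.70 ± 0.27 (adjusted p = 0.0963) with all. Mrps24 shares 226 exonic bases with Urgcp on the same strand, so that its count is uncertain, and Urgcp had a log2 difference of 0.39 in FF (adjusted p = 0.0369 with all libraries and 0.0554 without the 2). Mrps12, which belongs to the decoding centre, was at 49.8, 35.6 and 30.3 CPM in FF_EtOH and at 27.8, 26.7 and 28.2 CPM in FF_4OHT. FF_EtOH A was well above its group, and FF_EtOH C was within 3 CPM of the highest 4OHT library. Its log2 difference was -0.63 ± 0.19 (SE, edgeR adjusted p = 0.0376) without the 2 libraries and -0.48 ± 0.27 (adjusted p = 0.255) with all. Sars2, the neighbour that starts 172 bases away, had a log2 difference of -0.18 (adjusted p = 0.527).

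**Figure D4:**
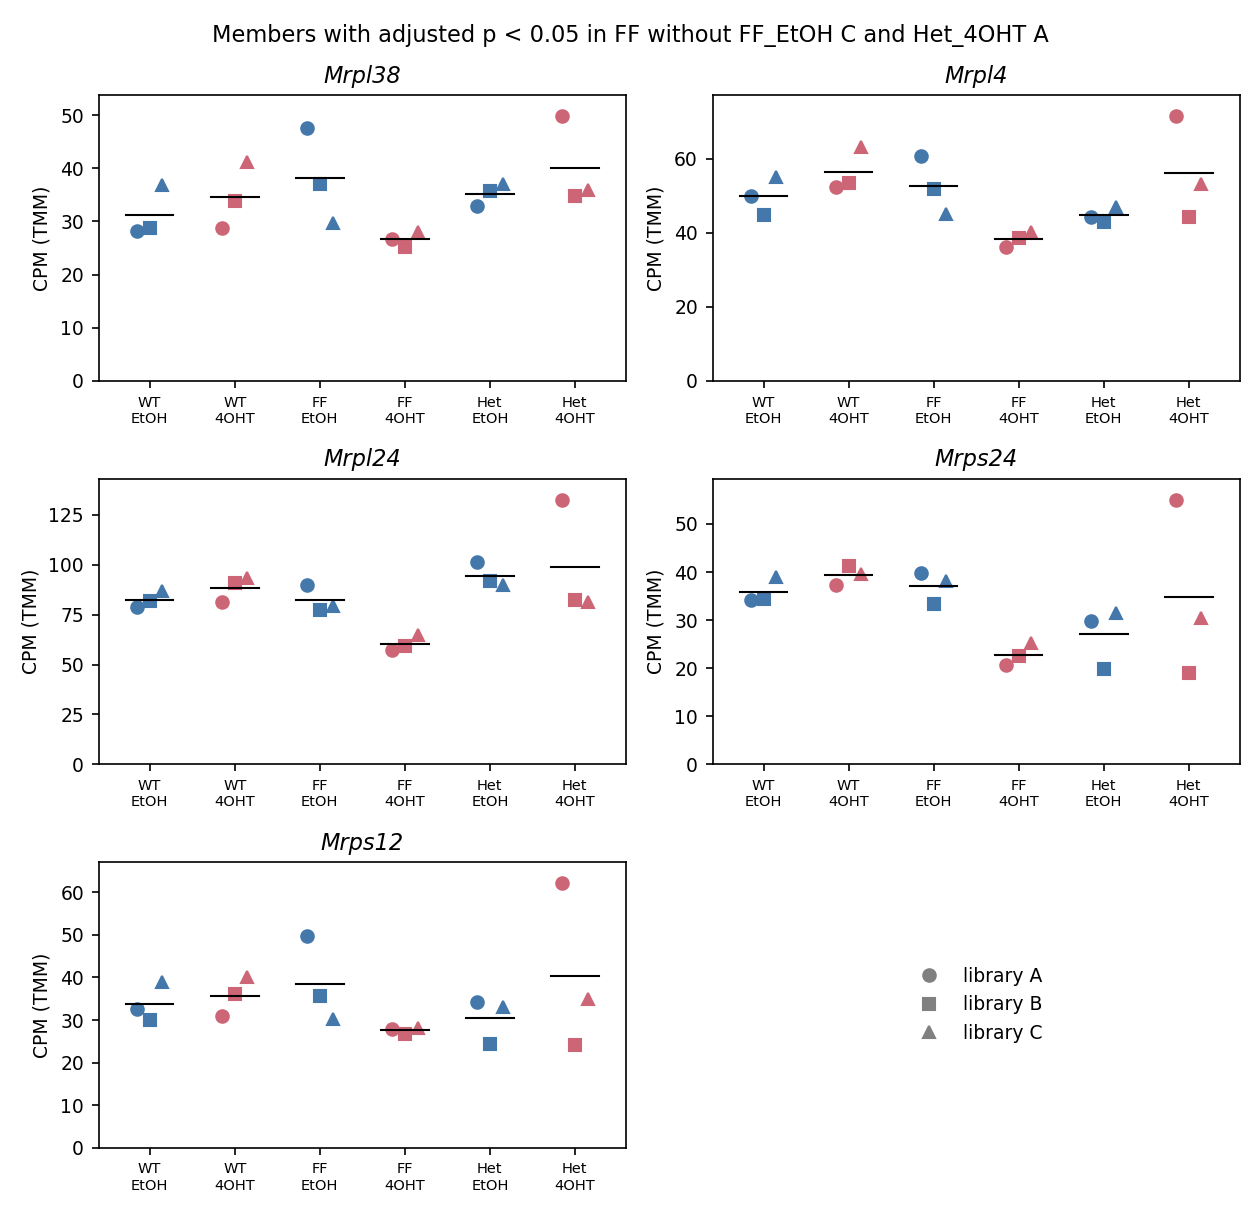
Level of Mrpl38, Mrpl4, Mrpl24, Mrps24 and Mrps12 in each library (CPM after TMM scaling, linear axes from 0), with library letters as symbols and group means as lines. In all 5 panels the FF_4OHT libraries lie below the FF_EtOH libraries, by the smallest margin in Mrpl38 and Mrps12, and Het_4OHT A is the highest library.

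Mrpl9, a large subunit protein with a bacterial counterpart, was the member nearest the threshold in the other direction and is named because its values were seen. It was at 57.6, 67.7 and 57.9 CPM in FF_EtOH and at 78.2, 77.03 and 73.9 CPM in FF_4OHT, without overlap. Its log2 difference was 0.32 ± 0.10 (SE, edgeR adjusted p = 0.0506) with all libraries and 0.28 ± 0.11 (adjusted p = 0.0802) without the 2. It shares 157 exonic bases with Oaz3 on the opposite strand.

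Monocyte and macrophage markers moved with the FF response: 6 of the 8 listed genes rose and none fell, where 663 of 12859 genes were called higher. The summed level of these markers went from between 432 and 487 CPM in FF_EtOH to between 1545 and 2109 CPM in FF_4OHT. It was between 531 and 719 CPM in WT_EtOH and between 512 and 802 CPM in WT_4OHT. Myeloid progenitor markers summed to between 6721 and 10311 CPM in FF_EtOH and between 5297 and 6104 CPM in FF_4OHT. Of the 9, 2 fell with all libraries, where 1066 of 12859 genes were called lower. Without FF_EtOH C and Het_4OHT A 1 of the 9 fell, against 10.5% of all genes called lower. Rn45s, the ribosomal RNA precursor, was at 5987, 18286 and 41160 CPM in FF_4OHT A, B and C and between 3828 and 6464 CPM in FF_EtOH. The part of any of these in the levels of Mrpl4, Mrpl24, Mrpl38, Mrps24 and Mrps12 was not tested.

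Whether FF responded differently from the other lines was tested as a difference of responses. With all libraries edgeR called no member in FF against WT (2.3% of all genes called). At an unadjusted p under 0.05 there were 0 higher and 5 lower, against 15.3% of all genes, and DESeq2 called none, against 5.04%. EdgeR also called none in FF against Het (2.5% called). There, 0 were higher and 8 lower at an unadjusted p under 0.05, against 16.3% of all genes, and DESeq2 called Mrpl4, 1 of 77 against 5.68%. Without FF_EtOH C and Het_4OHT A, the response was lower in FF than in WT for Mrpl4 (log2 difference of responses -0.73 ± 0.17, adjusted p = 0.023), Mrpl24 (-0.57 ± 0.14, adjusted p = 0.0253) and Mrpl38 (-0.81 ± 0.21, adjusted p = 0.0378), which is 3 of 77 against 4.57% of all genes called lower (6.19% in either direction). Against Het it was lower for Mrpl4 alone (-0.68 ± 0.18, adjusted p = 0.0484), 1 of 77 against 2.89% of all genes called lower (3.67% in either direction). The FF libraries are shared by both comparisons. The corresponding values with all libraries were -0.63 (adjusted p = 0.172), -0.55 (0.222) and -0.66 (0.224) against WT and -0.79 (0.0757) against Het. For Mrps24 the difference from WT was -0.81 (adjusted p = 0.0892) and for Mrps12 -0.71 (adjusted p = 0.126) without the 2 libraries, and neither was called.

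WT cells given 4OHT showed no member past the threshold, with 0% of all genes called. The median over the 77 genes was 0.02 on the log2 scale, with 44 above 0, and their range was -0.39 to 0.21. Without WT_4OHT C the median was -0.02, with 27 above 0. Mrpl1, the counterpart of a bacterial protein of the large subunit stalk, was lowest, at -0.39 ± 0.18 (SE, edgeR adjusted p = 1), and was the 1 member under 0.05 unadjusted, against 2.14% of all genes. DESeq2 called none, and 0.0311% of all genes.

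In Het cells, where 1 allele is deleted, 75 of the 77 genes had a positive log2 difference with all libraries and the median was 0.23, against 0.00 over all genes. EdgeR called none of them, with 0.0156% of all genes called. At an unadjusted p under 0.05, 2 were higher and 0 lower, against 1.91% of all genes, and DESeq2 called none, against 0.132%. Without FF_EtOH C and Het_4OHT A, 19 were above 0 and the median was -0.06, so that its sign turned. Without Het_4OHT B in place of those, the median was 0.42. Within a letter, the sum over the 77 genes was 3956 CPM in Het_EtOH A and 5770 CPM in Het_4OHT A, 3121 and 3104 CPM in the B libraries, and 3800 and 3848 CPM in the C libraries. Same-lettered Het libraries deviated together over all genes tested, although the labels do not state a pairing. The main fit did not use the letters as pairs. With the letters as a block within each line, no member was called either. The positive median therefore rested on library A. Mrpl4, for instance, had a log2 difference of 0.33 (adjusted p = 1) with all libraries and 0.12 (adjusted p = 1) without the 2.

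The comparison of Het with WT in ethanol, before any deletion, gave the clearest single-gene differences. With all libraries 4 members were lower in Het and none higher, which is 4 of 77 against 10.4% of all genes called lower (23.7% in either direction), so that the members' share was no larger than the background. The median over the 77 was -0.16 (all genes -0.03), with 16 genes above 0. With scaling by library size alone the medians were -0.03 and 0.10, so that the members minus all genes gave -0.13 in that scaling and -0.12 with TMM. Without Het_EtOH B, the library in which 25 members were lowest, the members' median was 0.00 and all genes' 0.01. Markers of other cell types moved with this comparison. Neutrophil markers summed to between 1055 and 1254 CPM in WT_EtOH and between 135 and 289 CPM in Het_EtOH, with 5 of the 6 tested lower in Het and none higher. Myeloid progenitor markers summed to between 11836 and 12142 CPM in WT_EtOH and between 5430 and 7290 CPM in Het_EtOH, with 3 of 9 lower and 1 higher. The 5 stromal genes summed to between 1.74 and 5.36 CPM in WT_EtOH and between 14.96 and 19.7 CPM in Het_EtOH. They did not move as a list: of the 3 tested, 1 was higher and 1 lower, with log2 differences from -1.80 to 8.74. The part of all these markers in the differences of single members was not tested.

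Mrps33, a small subunit protein found in mitochondrial ribosomes and not in bacterial ones, was at 60.6, 54.8 and 50.7 CPM in WT_EtOH and at 24.2, 17.2 and 21.1 CPM in Het_EtOH. It was at 53.2, 51.9 and 56.1 CPM in WT_4OHT and at 28.6, 15.8 and 20.3 CPM in Het_4OHT. FF_EtOH libraries were at 42.4, 51.0 and 53.1 CPM and FF_4OHT libraries at 53.1, 58.3 and 58.1 CPM. All 6 Het libraries, Het_4OHT A included, lay below all 12 WT and FF libraries. The log2 difference between Het and WT in ethanol was -1.41 ± 0.18 (SE, edgeR adjusted p = 4.36e-05). No other gene shares exonic bases with Mrps33 in the annotation.

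Mrps18b belongs to a family of 3 paralogs. It was at 69.5, 72.3 and 74.7 CPM in WT_EtOH, at 38.2, 28.05 and 39.1 CPM in Het_EtOH and at 53.0, 31.7 and 40.7 CPM in Het_4OHT. In the other groups it was between 63.7 and 122 CPM, so the Het libraries were again below all others. Its log2 difference was -1.04 ± 0.22 (SE, edgeR adjusted p = 0.0023). Mrps18b shares 638 exonic bases with an antisense gene, Gm16279, and its count is uncertain to that extent. Ppp1r10, which starts 45 bases away in the opposite direction, had a log2 difference of -0.11 (adjusted p = 0.733).

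All 3 paralogs had negative log2 differences in this comparison, and of them Mrps18b alone was called. Despite its symbol, the Mrps18a protein sits in the large subunit in mammalian ribosome structures, while Mrps18b and Mrps18c sit in the small one. Mrps18a was at 40.8, 42.3 and 43.2 CPM in WT_EtOH and at 39.0, 29.2 and 39.0 CPM in Het_EtOH (log2 -0.24 ± 0.21, edgeR adjusted p = 0.46). Mrps18c was at 51.7, 47.2 and 43.1 CPM in WT_EtOH and at 35.8, 22.1 and 38.9 CPM in Het_EtOH (log2 -0.55 ± 0.28, adjusted p = 0.169). Library B was the lowest Het_EtOH library for all 3 paralogs. None of the 3 passed the test in FF with all libraries, where the log2 differences were -0.11 for Mrps18a, -0.22 for Mrps18b and 0.31 for Mrps18c. Whether the paralogs differ from each other was not tested.

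Mrpl16, the counterpart of a bacterial protein near the tRNA sites of the large subunit, was at 59.2, 62.6 and 59.7 CPM in WT_EtOH and at 43.2, 28.8 and 42.3 CPM in Het_EtOH. Its log2 difference was -0.67 ± 0.20 (SE, edgeR adjusted p = 0.0229). Mrpl51, a large subunit protein, was at 114, 127 and 131 CPM in WT_EtOH and at 92.9, 63.6 and 80.6 CPM in Het_EtOH, with a log2 difference of -0.65 ± 0.21 (adjusted p = 0.032). Neither gene overlapped between these groups, but in Het_4OHT A both reached WT levels, 66.8 CPM for Mrpl16 and 136 CPM for Mrpl51. With single libraries left out in turn, Mrps33 and Mrps18b were called in 18 of 18 fits, Mrpl16 in 14 and Mrpl51 in 13. Without Het_EtOH B the log2 difference of Mrpl16 was -0.46 (edgeR adjusted p = 0.141) and that of Mrpl51 -0.47 (adjusted p = 0.172). The call of Mrpl16 was also lost without any 1 of the WT_EtOH libraries (adjusted p 0.0511 to 0.0667), and that of Mrpl51 without WT_EtOH B (0.0819), WT_EtOH C (0.101), FF_4OHT B (0.0508) or Het_EtOH C (0.072).

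**Figure D5:**
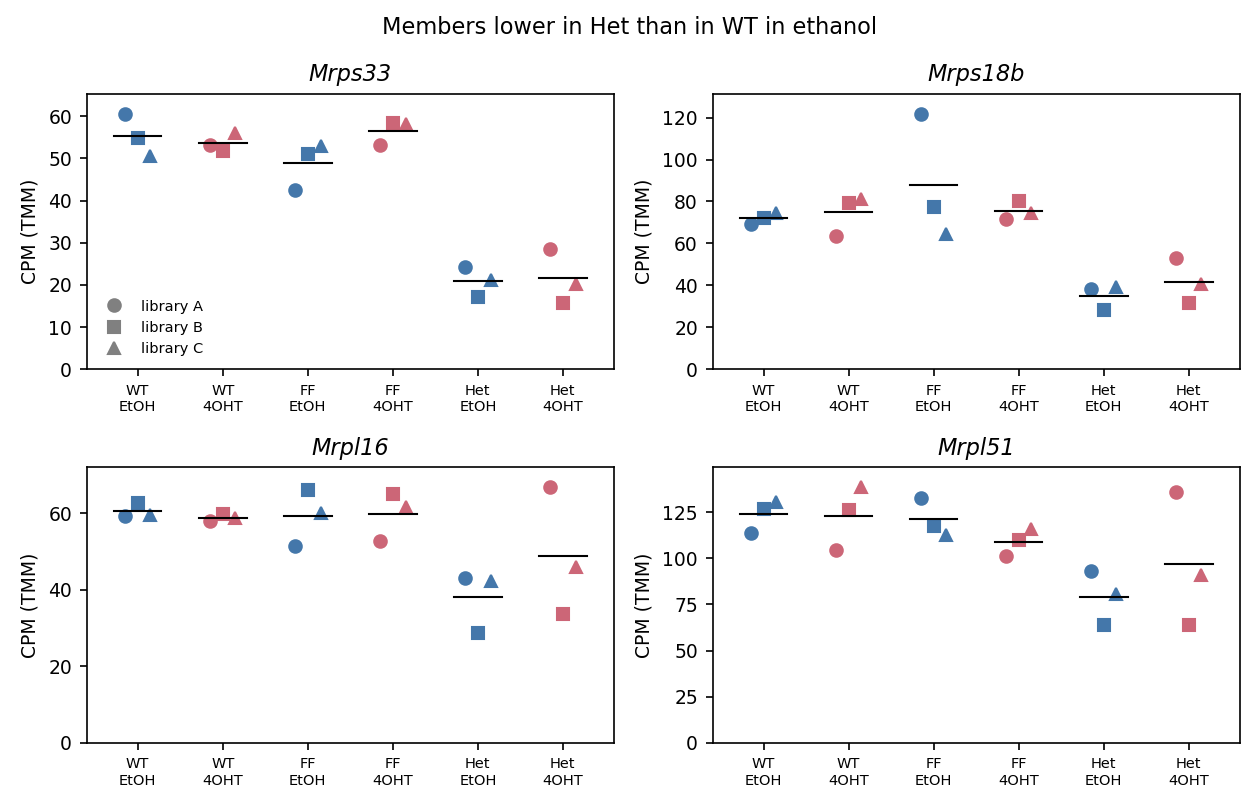
Level of Mrps33, Mrps18b, Mrpl16 and Mrpl51 in each library (CPM after TMM scaling, linear axes from 0), with library letters as symbols and group means as lines. For Mrps33 and Mrps18b all 6 Het libraries lie below the other 12, and for Mrpl16 and Mrpl51 Het_4OHT A reaches the WT range, at 66.8 and 136 CPM.

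Without FF_EtOH C and Het_4OHT A, 10 of 77 members were lower in Het than in WT, against 15.1% of all genes called lower (31.6% in either direction). These were the 4 above and Mrps36, Mrpl41, Mrps28, Mrpl23, Mrps15 and Mrpl48. Mrps36, now known as a component of the 2-oxoglutarate dehydrogenase complex in spite of its ribosomal symbol, was at 42.0, 40.6 and 35.0 CPM in WT_EtOH and at 26.3, 16.7 and 23.2 CPM in Het_EtOH. Its log2 difference was -0.83 ± 0.15 (SE, edgeR adjusted p = 0.00101) without the 2 libraries and -0.83 ± 0.30 (adjusted p = 0.0577) with all. Both groups of this comparison are complete in both fits, so that the estimate stayed and its error shrank. Het_4OHT A held 51.7 CPM of Mrps36 against 15.3 and 21.6 CPM in Het_4OHT B and C.

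FF and WT cells in ethanol, before Cre was induced, had no member past the threshold with all libraries, with 0% of all genes called, none under 0.05 unadjusted (5.5% of all genes) and none with DESeq2 (0.21%). Mrps5, a small subunit protein with a bacterial counterpart, was at 105, 77.8 and 51.7 CPM in FF_EtOH A, B and C and at 56.8, 59.4 and 59.6 CPM in WT_EtOH. The library labelled FF_EtOH C lay below WT and the other 2 above it. In WT_4OHT, Mrps5 was at 53.9, 60.2 and 82.2 CPM, with the library labelled WT_4OHT C above the other 2. The log2 difference between FF and WT in ethanol was 0.41 ± 0.20 (SE, edgeR adjusted p = 0.906) with all libraries and 0.64 ± 0.16 (adjusted p = 0.064) without FF_EtOH C and Het_4OHT A, where 0.0231% of all genes were called. Mrps5 is named because its values were seen.

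Genes of other steps of mitochondrial translation are read against the same background, 13.4% of all genes called in FF with all libraries and 17.6% without FF_EtOH C and Het_4OHT A. Of 20 mitochondrial aminoacyl-tRNA synthetase genes, which charge the tRNAs used by this ribosome, 7 fell and 1 rose with all libraries, with a median log2 difference of -0.32, and 8 fell and 1 rose without the 2. Vars2 (valyl) went from 41.6 ± 3.82 to 24.4 ± 1.37 CPM (SD, n = 3, edgeR adjusted p = 0.000679) and Iars2 (isoleucyl) from 143 ± 2.45 to 97.9 ± 5.28 CPM (adjusted p = 0.00237). Against WT, 3 of the 20 were lower in the difference of responses, where 243 of 12859 genes were called lower (2.3% in either direction). The share of ribosomal protein genes and of synthetase genes called was not compared by a test.

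Of 27 factors that assemble the mitochondrial ribosome, 3 fell and 2 rose in FF, with a median of 0.09, and 3 fell and 4 rose without the 2 libraries. The first count, 5 of 27, lies near the background of 13.4%. The 3 with the smallest adjusted p all fell: Tfb1m, which methylates the small subunit ribosomal RNA, went from 19.8 ± 0.96 to 11.99 ± 0.54 CPM (SD, n = 3, edgeR adjusted p = 0.00199), the GTPase gene Mtg1 from 26.6 ± 0.88 to 18.2 ± 0.90 CPM (adjusted p = 0.00365) and the GTPase gene Noa1 from 37.8 ± 1.83 to 27.7 ± 0.51 CPM (adjusted p = 0.01). Of 16 translation factors tested, Gfm2, a ribosome recycling factor, fell (log2 -0.53, adjusted p = 0.0142), as did the release factor family gene Mtrf1 (-0.51, adjusted p = 0.0146), and the inner membrane insertase gene Oxa1l rose (0.41, adjusted p = 0.0326). These are 3 of 16, near the 13.4% of all genes, and without the 2 libraries 2 fell and 1 rose.

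Of 6 mitochondrial ribosomal proteins with other symbols, Chchd1, a small subunit protein, fell from 42.0, 40.5 and 39.8 CPM in FF_EtOH to 23.2, 22.9 and 20.8 CPM in FF_4OHT (log2 -0.87 ± 0.26, edgeR adjusted p = 0.0387). It was the 1 called of the 6, and without FF_EtOH C and Het_4OHT A 2 of them fell. Of 23 genes of mitochondrial transcription and RNA processing, 3 fell and none rose: Polrmt, the mitochondrial RNA polymerase (log2 -0.48, adjusted p = 0.0154), Rexo2, an oligoribonuclease (-0.56, adjusted p = 0.0345), and Fastk (-0.49, adjusted p = 0.0474). That is 3 of 23, a share no larger than the 13.4% of all genes, and without the 2 libraries 5 fell. Of 10 regulators of nuclear genes for mitochondrial proteins, Nrf1 fell (-0.42 ± 0.09, adjusted p = 0.00661) and Myc fell (-0.61 ± 0.18, adjusted p = 0.0346). Ppargc1a, a transcriptional coactivator of mitochondrial genes, rose from a mean of 0.124 to 1.47 CPM (adjusted p = 0.000853), a low level in both groups. Without the 2 libraries, 3 of the 10 fell and 2 rose. Genes of the mitochondrial DNA itself are not analysed here.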

How the data were processed

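The deposited table holds raw read counts per gene symbol, which the authors made, per the submitters' processing notes, on mm10 with HISAT2 2.0.5, featureCounts 1.5.2 of Subread, CASAVA 1.4 and FastQC 0.11.7. Not given in the sources used here are strand setting, annotation and treatment of multiply mapped reads. Groups follow the sample titles. Counts were fitted with edgeR 4.0.16 (R 4.3.3) over all 18 libraries, with 1 mean per group, TMM scaling, the robust quasi-likelihood test, filterByExpr with a minimum count of 10, Benjamini-Hochberg adjustment over all genes tested and a threshold of 0.05. Alternatives were other scalings and filters, DESeq2 1.42.0, only the groups compared, a replicate block and libraries left out. Deviations used log2(CPM + 0.5). One count was worth 0.0203 to 0.0404 CPM.

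The members and lists were chosen with earlier results of these data known. Named are the called members, up to 5 per direction in each comparison, the 5 highest and lowest per kilobase, the Mrps18 paralogs, Mrpl12, and up to 3 genes per context list called in FF with the smallest adjusted p. One gene that this rule takes is not reported here, while the counts include it. Mrpl9, Mrps5 and the neighbours were named after their values were seen. Over all genes tested, libraries of 1 letter deviated together in Het (correlations 0.51, 0.76 and 0.45 for A, B and C). In WT the correlations were 0.52, -0.06 and 0.30. The main fits did not use the letters as pairs in any line.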

Additional observations from a re-analysis of the deposited data

Results flagged for a closer look

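In 4 tests, all without FF_EtOH C and Het_4OHT A, a member's response to 4OHT differed between lines by the test of the difference itself in edgeR. The response in FF was lower than in WT by a log2 difference of -0.73 for Mrpl4 (adjusted p = 0.023), -0.57 for Mrpl24 (adjusted p = 0.0253) and -0.81 for Mrpl38 (adjusted p = 0.0378). It was lower than in Het by -0.68 for Mrpl4 (adjusted p = 0.0484). These are 3 of 77 members against 4.57% of all genes called lower than in WT, and 1 of 77 against 2.89% for Het. With all libraries none of the 4 passed the threshold. With single libraries left out in turn, Mrpl4 was called in 1 of 18 fits against WT and in 1 against Het. Against WT, Mrpl24 was called in 1 and Mrpl38 in 0. Mrpl4 kept an adjusted p of 0.0467 against WT and 0.0352 against Het when WT_4OHT C was left out as well, while Mrpl24 (adjusted p = 0.0568) and Mrpl38 (adjusted p = 0.0771) were then not called against WT.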

How the results depend on the processing

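No called difference of a named member changed sign. Medians over the members, which were not tested, did so in the Het response, as described, and in other comparisons. The median of the WT response went from 0.02 to -0.02 without WT_4OHT C. That of Het against WT in ethanol went from -0.16 to 0.003 without Het_EtOH B. That of FF against WT in ethanol went from -0.01 to 0.015 without FF_EtOH C. The count of members called in FF, 0 with all libraries, was 1 with DESeq2 size factors, with library size only and with a filter of 5 CPM in 3 libraries (Mrpl9 each time), 2 with DESeq2, 2 with only the groups compared (Mrpl24 and Mrps24), and 6 with a replicate block (Mrps24, Mrpl24, Mrpl4 and Mrpl19 lower, Mrpl9 and Mrpl36 higher). It was 5 without FF_EtOH C and Het_4OHT A, 2 without FF_EtOH C and WT_4OHT C (Mrpl38 and Mrpl4) and 6 without all 3 (Mrps5 added). With 1 library left out in turn it ran from 0 to 7, the highest without Het_4OHT A. The replicate block paired the letters within each line for the responses and their differences. In the ethanol comparisons it took the letter alone. Over all genes tested, the correlations of same-lettered libraries A, B and C were 0.19, 0.27 and 0.08 in FF. They were 0.52, -0.06 and 0.30 in WT. WT A and C were thus not far from the Het values. Over the members alone, the correlations for A, B and C were 0.58, 0.84 and 0.24 in Het. They were 0.70, -0.23 and 0.60 in WT and 0.18, 0.31 and 0.21 in FF. Over the members, WT A and C were thus above Het A and C, and WT B was below Het B. Neither these values nor the labels settle the pairing in any line. A replicate block moved the other counts by no more than 1.5 times. For FF against WT the count, 0, was 1 with only the groups compared (Mrps24), 3 without FF_EtOH C and Het_4OHT A, 1 without all 3 libraries, and 0 to 2 in leave-one-out fits. For FF against Het it was 1 with DESeq2, 1 without the 2 and 1 without the 3 libraries (Mrpl4), and 0 to 2 in leave-one-out fits. For Het against WT in ethanol the count, 4, was 8 with only the groups compared, 10 without the 2 and 10 without the 3 libraries, and 2 to 10 in leave-one-out fits: 2 without WT_EtOH B, WT_EtOH C or Het_EtOH B, 7 without Het_4OHT B and 10 without Het_4OHT A. For FF against WT in ethanol it was 1 without FF_EtOH C and WT_4OHT C (Mrps5) and 2 without the 3 libraries (Mrps5 and Mrps2). The Het and WT responses had 0 called members in all alternatives run. The share of all genes called moved between fits as well. It went from 13.4% to 17.6% in FF and from 23.7% to 31.6% for Het against WT without FF_EtOH C and Het_4OHT A. That share is not given beside each count here, so changes in the counts are not read as a result about the members. The cause of these changes was not tested. With 3 libraries a group, the median standard error of a member's log2 difference in FF was 0.19. Larger differences could also go uncalled: the lowest with all libraries was -0.70, and none of the 77 was called. The lack of calls therefore does not exclude falls of that size in single members.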
